A study of Saccharomyces cerevisiae with 55 samples.

Results

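The experiment described here asked what rapamycin does to the mRNA of budding yeast that lacks the inositol pyrophosphate kinases Kcs1 and Vip1 and is in high salt. Its members were the 3 arrays, of 55 in the series, on which the labels put kcs1vip1 cells given KCl plus rapamycin against kcs1vip1 cells given KCl. All strains were W303, MATa. The wild type was ACY044 and the kcs1vip1 mutant was ACY236, with both genes deleted. Cells in mid-log growth in YEPD, a rich medium with glucose, were treated for 20 min with 0.375 M KCl, and in one channel also with 200 nM rapamycin. Both RNAs on each of the 3 arrays came from the same double mutant, so the log2 ratio measured what rapamycin added to the salt response of that mutant, and a positive value means more RNA with rapamycin. The series' stated question for these arrays was whether inositol pyrophosphates act upstream of TORC1 (or on it), or downstream of it, in the stress response.

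Rapamycin binds the prolyl isomerase Fpr1, and the complex inhibits TORC1, the kinase complex that couples nitrogen and amino acid supply to growth. In yeast, inhibition of TORC1 lets the GATA factors Gln3 and Gat1 enter the nucleus and switch on genes for poor nitrogen sources, a group held silent in rich medium by nitrogen catabolite repression. It also lowers the transcription of ribosomal protein genes and of the ribosome biogenesis genes, through the kinase Sch9 and the factors Sfp1, Dot6, Tod6 and Ifh1, and raises general stress genes through Rim15, Msn2 and Msn4. Kcs1 and Vip1 make the pyrophosphorylated inositol phosphates, small signalling molecules that take part in phosphate sensing and in the stress response.

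For comparison, 3 other sets of arrays were used, namely the wild type in KCl over the wild type in log phase (3 arrays, 1 of them with swapped dyes), the kcs1vip1 mutant in KCl over the wild type in KCl (3 arrays), and the wild type in 200 nM rapamycin for 20 min over the wild type in log phase (1 array, without KCl). The column of this last array has more decimals than most and a median above 0, and it may have been processed differently from the others, which bears on every value of it given here. Wild type cells in KCl plus rapamycin were not analysed here. Nothing in the labels says that arrays of 1 group came from separate cultures, so the p-values measure the spread between arrays, which may be technical.

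The 3 rapamycin arrays held 5849, 6113 and 6121 values, and their number limits the precision. All 3 carried the rapamycin RNA in Cy5, so that a dye effect on a gene cannot be averaged out. Replicate 2 stood apart. Its log2 ratios had an SD over genes of 0.733, against 0.473 on replicate 1 and 0.458 on replicate 3, and 538 genes were at least 2-fold lower on it, against 75 and 30. Among genes with a symbol, those shorter than 600 bases had a median of -0.53 on replicate 2 and of -0.145 and -0.16 on the others. Across genes, Pearson's r was 0.702 between replicates 1 and 2, 0.736 between 1 and 3, and 0.566 between 2 and 3, where genes are not independent replicates and nothing was tested. The 2 deleted genes gave no check of the treatment, since they are missing from both channels. KCS1 had no value on replicate 1 and read 1.03 and -0.17 on the others, and VIP1 had none on replicate 1 and read 1.18 and -0.16.

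**Figure D1:**
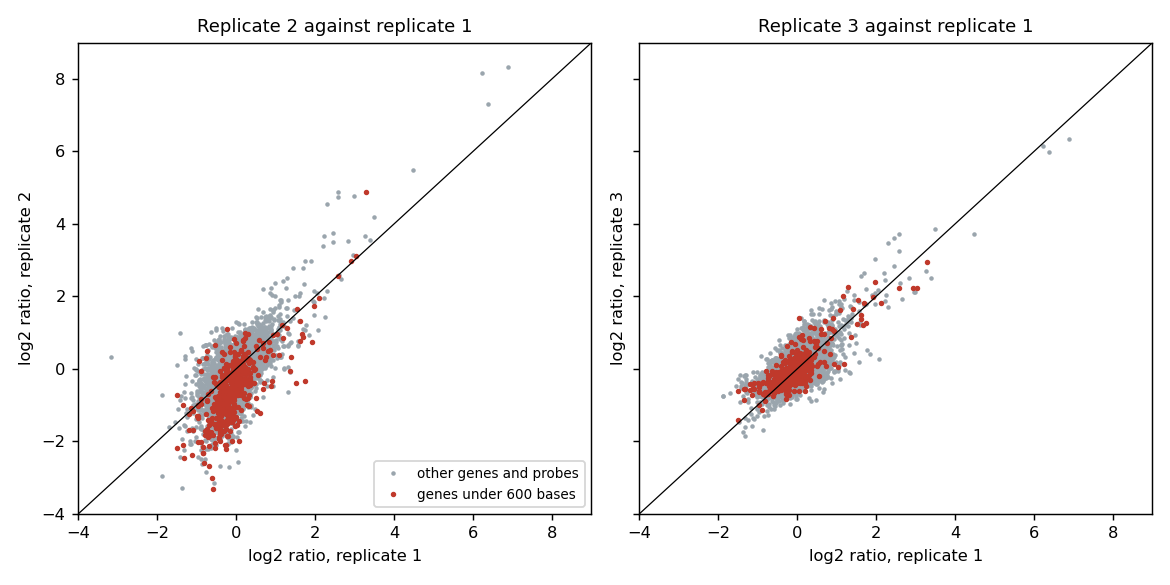
Log2 ratios of every gene or probe on replicate 2 (left) and replicate 3 (right) against replicate 1, with rapamycin added to KCl in kcs1vip1 as the numerator. Red points are genes under 600 bases, grey points all others, and the line marks equal values. On replicate 2 many short genes lie below the line, and the 3 genes above 5.9 on both axes are GAP1, MEP2 and AGP1.

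Of 6052 genes or probes with at least 2 values, 306 (5.06%) passed an adjusted p of 0.05 in limma. Of these, 150 (2.48%) were higher with rapamycin and 156 (2.58%) lower, and the median over all genes tested was -0.003. The higher genes changed more. Of them 94 were at least 2-fold and 33 at least 4-fold higher, whereas 59 of the lower genes were at least 2-fold and 1 at least 4-fold lower. Without replicate 2, 78 genes passed, 66 higher and 12 lower, so most of the lower calls rested on that array. Without replicate 1, 185 passed, and without replicate 3, 222.

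The largest changes were in nitrogen genes. Of the 34 targets of nitrogen catabolite repression, 23 rose with rapamycin and none fell, with a median of 1.57 over the list. Without replicates 1, 2 or 3 in turn, 22, 17 and 21 of the 34 passed. GAP1 (YKR039W), the general amino acid permease, read 6.88, 8.32 and 6.33 on the 3 arrays, for a mean of 7.18 ± 1.03 (SD, n = 3) and an adjusted p in limma of 6.34e-18. MEP2 (YNL142W), the high-affinity ammonium permease that also acts in filamentous growth, read 6.23, 8.16 and 6.15, a mean of 6.85 ± 1.14. AGP1 (YCL025C), a broad amino acid permease, read 6.37, 7.31 and 5.99, a mean of 6.56 ± 0.68. All 3 genes were far above 0 on every array, and no other gene with a symbol reached a mean of 5.

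Both other ammonium permeases rose as well. MEP3 read 3.39, 3.55 and 2.5 (mean 3.15) and MEP1 read 1.68, 2.78 and 2.65 (mean 2.37). GLN1, glutamine synthetase, which joins ammonium to glutamate, read 2.20, 3.38 and 2.65, a mean of 2.74 ± 0.60 with an adjusted p of 1.73e-09 in limma. GDH1, the NADPH-dependent glutamate dehydrogenase that fixes ammonium in glucose medium and is listed with the genes of branched-chain amino acid synthesis, read 2.98, 4.77 and 2.11, a mean of 3.29 ± 1.36. The catabolic glutamate dehydrogenase gene GDH2 was also higher, at 0.75 ± 0.22. GDH3, a biosynthetic gene and the paralog of GDH1, averaged 0.96 without passing (adjusted p = 0.109 in limma). The ammonium uptake and assimilation genes were positive on every array, with MEP1 lowest on replicate 1 and GDH1 highest on replicate 2.

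The genes for allantoin, the purine breakdown product that yeast can use as nitrogen, rose together. The allantoate permease DAL5 read 2.57, 4.74 and 3.71 (mean 3.67 ± 1.09) and DAL3, ureidoglycolate lyase, read 3.30, 4.87 and 2.96 (mean 3.71 ± 1.02). DAL7 averaged 2.31, DAL1 (allantoinase) 2.04, DCG1 1.75, DAL2 (allantoicase) 1.62 and DAL4 (the allantoin permease) 1.60, and the urea permease DUR3 averaged 1.63. Each was positive on all 3 arrays and highest on replicate 2. AMD2, a putative amidase outside the list, averaged 2.17 ± 0.70 with an adjusted p of 8.62e-09 in limma.

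GABA and proline genes split. UGA4, the GABA permease, read 2.30, 4.56 and 3.48 (mean 3.45 ± 1.13), whereas UGA1, the GABA transaminase, averaged 0.43 and did not pass (adjusted p = 0.166). PUT1, proline oxidase, averaged 2.96 ± 0.52 and the proline permease PUT4 1.40 ± 0.36, whereas PUT2, the next enzyme of proline breakdown, read -0.08, 0.02 and 0.08. PUT1 and UGA4 were more than 2-fold higher on every array, while PUT2 lay within 0.1 of 0 on all of them. The 4 asparaginase copies ASP3-1 to ASP3-4, which share near-identical sequence and cannot be told apart with certainty on an array, averaged 0.53 to 0.64 and none passed. NIT1 (0.55), ARG4 (0.39), UGX2 (0.24) and VID30 (0.15) did not pass either.

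Among the GATA factors that act on these genes, the repressor DAL80 rose most, at 4.49, 5.49 and 3.73 (mean 4.57 ± 0.88, adjusted p = 1.49e-11 in limma). The activator GAT1 read 1.08, 1.75 and 1.02 (mean 1.28 ± 0.41), and its adjusted p became 0.0508 without replicate 2. The repressor GZF3 read 1.13, 1.17 and 0.55 (mean 0.95 ± 0.35). All 3 are themselves targets of the pathway. The vacuolar carboxypeptidase CPS1 averaged 1.17 and OPT2, of the oligopeptide transporter family, 1.54.

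**Figure D2:**
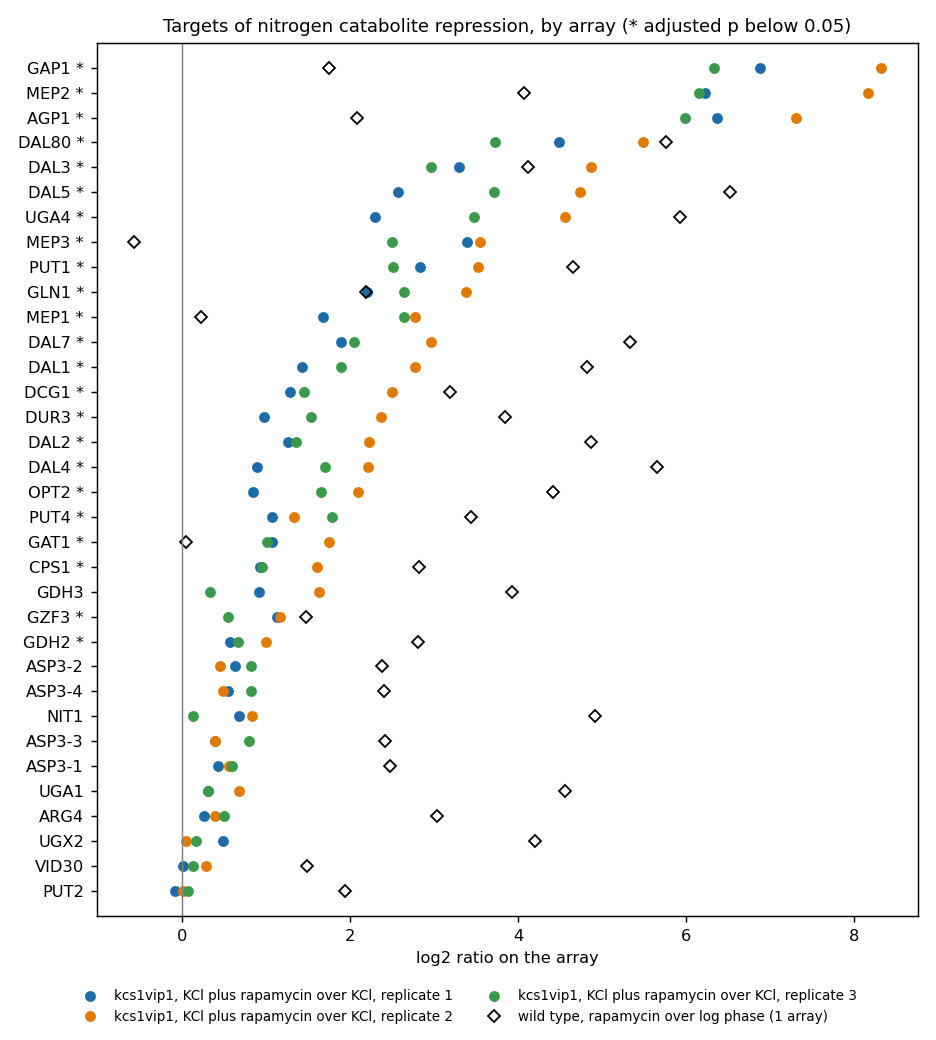
Log2 ratios of the 34 targets of nitrogen catabolite repression on the 3 arrays of rapamycin added to KCl in kcs1vip1 (filled circles) and on the 1 wild type rapamycin array without KCl (open diamonds), genes ordered by their mean on the filled circles. The 23 genes with an asterisk passed in limma. GAP1, MEP2 and AGP1 are higher on all 3 filled circles than on the diamond, and most other members have the diamond to the right.

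On the wild type rapamycin array, 31 of the same 34 genes were at least 2-fold higher and none was at least 2-fold lower, with a median of 3.32 against 0.378 for all genes of that array. There, 1737 of 6166 genes (28.2%) were at least 2-fold higher and 1040 (16.9%) at least 2-fold lower, and no test is possible with 1 array. The order of the members was not the same on the 2 kinds of array. For the wild type, DAL5 read 6.52, UGA4 5.93, DAL80 5.76 and DAL4 5.66, whereas GAP1 read 1.76 and AGP1 2.08, with MEP2 at 4.07. Genes that did not pass in kcs1vip1 were high there too, such as NIT1 at 4.91, UGA1 at 4.56 and GDH3 at 3.93. Strain and salt both differ between these arrays, so their parts cannot be told apart, and the difference was not tested.

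Amino acid and peptide permeases rose in part. Of 15 genes listed with the SPS sensor (the plasma membrane complex of Ssy1, Ptr3 and Ssy5), 5 rose and none fell, with a median of 0.49. Not every permease on the list need be a target of the sensor. PTR2, the di- and tripeptide transporter, read 3.49, 4.18 and 3.85 (mean 3.84 ± 0.35, adjusted p = 4.18e-10 in limma). DIP5, a dicarboxylic amino acid permease, averaged 3.27 ± 0.72, and BAP3, a branched-chain amino acid permease, 1.20 ± 0.28. CAN1, the arginine permease, read 3.27, 3.67 and 2.71 (mean 3.22 ± 0.48), and AGP1, which is also on the list of nitrogen catabolite repression, is the fifth. MUP1, the methionine permease, averaged 1.13 and TAT1 0.92, and neither passed (adjusted p of 0.0643 and 0.085), while the sensor genes SSY1 and PTR3 averaged 0.11 and 0.01. The oligopeptide transporter gene OPT1, outside the list, averaged 2.93 ± 0.54 and the asparagine synthetase gene ASN1 2.74 ± 0.53.

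In the wild type with rapamycin several of these permeases lay on the other side of 0. MUP1 read -4.61, BAP2 -3.37, TAT1 -3.08 and BAP3 -2.14 on that array, and the list's median was 0.411, close to that of all its genes. In kcs1vip1, BAP2 read -0.01, 0.18 and 1.10 and did not pass. The values are given side by side, with the possible difference in processing, and their difference was not tested.

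Retrograde genes, which supply 2-oxoglutarate for glutamate synthesis and answer to Rtg1 and Rtg3, were higher in 4 of 11 cases, with a median of 0.633. CIT2, the peroxisomal citrate synthase, read 1.62, 2.08 and 2.55 (mean 2.08 ± 0.47). PYC1, a pyruvate carboxylase, read 1.18, 2.43 and 1.92 (mean 1.84 ± 0.63), and CIT3 and CIT1, the mitochondrial citrate synthases, averaged 1.29 and 1.00. DLD3, another target of Rtg1 and Rtg3, averaged 1.21 and did not pass (adjusted p = 0.0857). Without replicate 2, 2 of the 11 passed. The list's median in the wild type with rapamycin was 1.65.

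Of 11 arginine genes, CAN1 and CAR1 (arginase, 1.40 ± 0.16) rose and none fell, and the biosynthetic genes ARG1, ARG3 and ARG4 averaged 0.90, 0.40 and 0.39 without passing. Of 12 vacuolar hydrolases CPS1 and the aminopeptidase APE1 (0.71 ± 0.35) rose, and both calls were lost without replicate 1 and without replicate 2. None of 26 autophagy genes passed in limma, with a median of 0.072, and 3 had an unadjusted p below 0.05 (1 higher and 2 lower), as did 1228 (20.3%) of all genes tested. With arrays scaled to the same spread, 6 were called higher and 2 lower. The wild type autophagy median with rapamycin was 1.41, with 18 of 26 at least 2-fold higher.

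Growth genes changed less than nitrogen genes. Of 56 genes of the small subunit processome, which makes the small ribosomal subunit in the nucleolus, 8 fell with rapamycin and none rose, with a median of -0.41. Of 68 genes of large subunit assembly 12 fell and none rose, with a median of -0.325. SOF1 (YLL011W) read -1.47, -1.11 and -1.47 (mean -1.35 ± 0.21, adjusted p = 0.000329 in limma), RRP9 read -1.11, -0.79 and -1.37 (mean -1.09 ± 0.29) and EMG1 read -0.66, -1.39 and -1.11 (mean -1.05 ± 0.37). Of the large subunit genes, MAK16 read -1.16, -2.0 and -1.25 (mean -1.47 ± 0.46) and NHP2, a core protein of the box H/ACA snoRNPs, read -0.89, -2.03 and -1.13 (mean -1.35 ± 0.60). MRT4 averaged -1.35, AIR1 -1.25, DBP6 -1.10 and RLP24 -1.06.

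These calls leaned on replicate 2. The medians on replicates 1, 2 and 3 were -0.205, -0.725 and -0.305 for the processome and -0.12, -0.72 and -0.265 for large subunit assembly. Without replicate 2, 2 of 56 and 0 of 68 genes passed, and without replicate 3, 5 and 8. Both channels of these arrays held cells in KCl. In kcs1vip1, KCl over log phase already gave medians of -1.685 and -1.88 for these lists (1 array). In the wild type, where the ratios are over log phase, the same lists had lower medians. They were -3.75 and -3.35 on the rapamycin array, where 55 of 56 and 63 of 68 genes were at least 2-fold lower, and -4.20 and -3.98 in KCl. SOF1 read -3.25 on the wild type rapamycin array and MAK16 -4.97.

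Subunits and factors of RNA polymerases I and III showed the same pattern. Of 29 genes 7 fell and none rose, with a median of -0.493. RPA12 (YJR063W), a subunit of polymerase I, read -1.49, -2.18 and -1.41 (mean -1.69 ± 0.42, adjusted p = 1.81e-05 in limma). RPA14 read -0.82, -2.61 and -0.88 (mean -1.44 ± 1.02), with replicate 2 far below the others. RPC19, shared by polymerases I and III, averaged -1.33, RPC17 -1.21, and the polymerase I initiation factor RRN11 -1.12. Without replicate 2, 1 of the 29 passed. All 7 but RRN11 are under 600 bases long, and among the lower genes with a symbol 24 of 130 (18.5%) were under 600 bases, against 12.3% of all tested genes with a symbol. With only genes of at least 600 bases, an alternative chosen after seeing the data, 2 of the polymerase genes passed.

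Ribosomal protein genes had no common direction. Of 136, 9 were higher and 7 lower, with a median of -0.12 and array medians of -0.085, -0.805 and 0.54. RPL22B, which is spliced and a paralog of the main gene RPL22A, read -1.32, -1.55 and -1.37 (mean -1.41 ± 0.12). RPS9A averaged -1.17, RPS27A -1.15 and RPL7B -0.93. On the other side RPL4A averaged 1.75, RPP2B 1.46, RPL4B 1.37 and RPL16B 1.26. Many of these genes are near-identical pairs whose signals may mix. The split moved with single arrays. It was 2 higher and 3 lower without replicate 1, 4 and 0 without replicate 2, and 1 and 7 without replicate 3, and with a dye term it was 0 and 11. In the wild type, the rapamycin median of the list was -1.52, with 116 of 136 genes at least 2-fold lower.

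**Figure D3:**
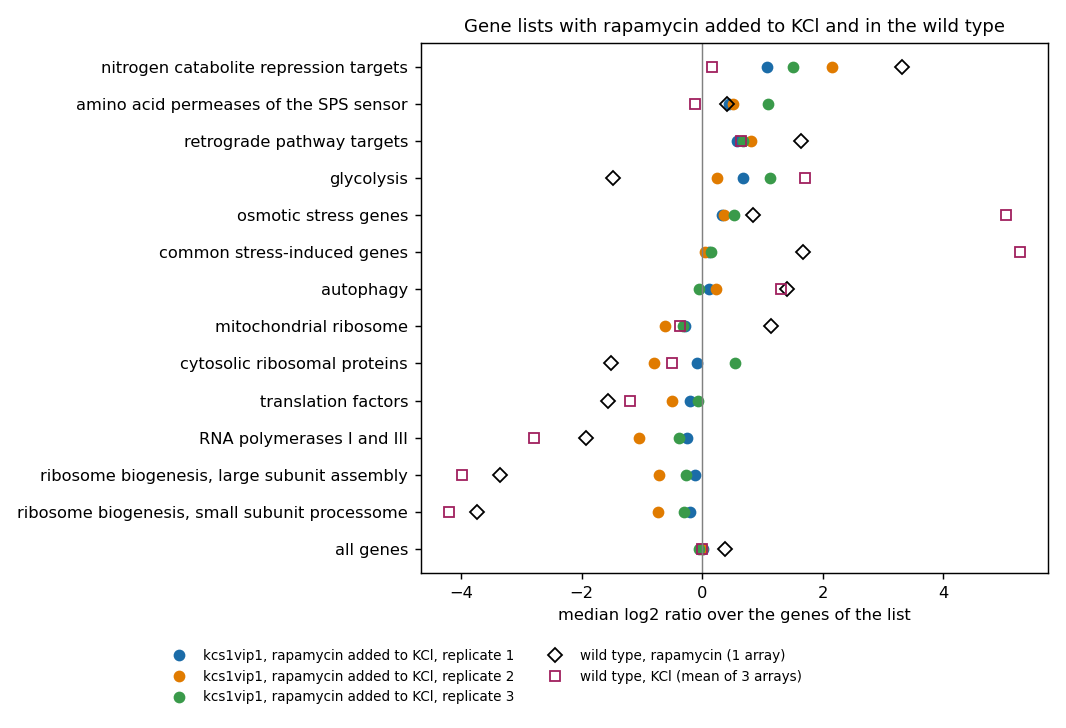
Median log2 ratio over the genes of 13 lists and over all genes, on each array of rapamycin added to KCl in kcs1vip1 (filled circles), on the wild type rapamycin array (diamonds) and in wild type KCl (squares, mean of 3 arrays). The filled circles are ratios over KCl, and the wild type symbols are ratios over log phase. The ribosome biogenesis lists lie between -0.12 and -0.725 on the filled circles and near -3.3 to -4.2 on the wild type symbols, whereas the targets of nitrogen catabolite repression lie to the right on all 4 rapamycin arrays.

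Translation factors also had members on both sides. Of 42, TEF2, TEF1 and HYP2 were higher, while TIF5 (-0.84), the cap-binding protein gene CDC33 (-0.77) and its partner CAF20 (-0.78) were lower, with a median of -0.218. Leaving out replicates 1, 2 and 3 in turn gave 2, 3 and 3 higher and 1, 0 and 4 lower, and with a dye term none of the 42 passed. None of 18 aminoacyl-tRNA synthetase genes passed in limma, also none at an unadjusted p of 0.05, with a median of -0.10. Of 57 mitochondrial ribosomal protein genes 5 fell (MRPL49, MRPL28, MRPL25, MRPL17 and RSM22, at -0.94 to -0.55) and none rose, and without replicate 2 none passed. That list's median was 1.15 in the wild type with rapamycin.

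Genes of purine synthesis were among the lowest. Of 35 nucleotide synthesis genes 7 fell and 1 rose, with a median of -0.15. Without replicates 1, 2 and 3 in turn, 5, 4 and 5 fell and none rose. ADE4 (YMR300C), the first committed enzyme of purine synthesis, read -1.33, -2.45 and -1.84 (mean -1.87 ± 0.56, adjusted p = 3.86e-06 in limma). ADE17, which catalyses the last steps to IMP, read -1.38, -3.28 and -1.75 (mean -2.14 ± 1.01), and the call was lost without any 1 of the 3 arrays. ADE1 averaged -1.39, ADE2 -1.27 and ADE13 -0.99, and HPT1, which salvages hypoxanthine and guanine, -1.46. All of these were negative on every array and lowest on replicate 2. The purine permease FCY2 was the 1 member that passed as higher, at 1.39, and this call too was lost without any 1 of the 3 arrays.

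Some genes of one-carbon metabolism, which had no list of their own, also fell. MTD1, a cytosolic methylenetetrahydrofolate dehydrogenase, read -0.87, -2.63 and -1.70 (mean -1.73 ± 0.88), and GCV1, a subunit of the glycine cleavage complex, read -1.15, -2.07 and -1.59 (mean -1.60 ± 0.46). SHM2, cytosolic serine hydroxymethyltransferase, averaged -1.32, and SER2, the last enzyme of serine synthesis, -1.09; both lie outside the lists and were picked after their values were seen. Of 44 Gcn4 targets, 4 fell (ADE4, ILV5, GCV1 and HIS7) and none rose, with a median of -0.152, and without replicate 2 only 2 of the 44 passed. ILV5, the acetohydroxyacid reductoisomerase of branched-chain synthesis, read -1.32, -2.24 and -1.60 (mean -1.72 ± 0.47). On the wild type rapamycin array GCV1 read 2.34, ADE17 0.85 and MTD1 0.84, while ILV5 read -1.88 and HPT1 -1.45. Among other genes, the lowest means included the ubiquitin-like protein gene URM1 (-1.45), the kinetochore gene DAD2 (-1.40), which read -0.60, -3.32 and -0.27, and the THO complex gene THP2 (-1.36), and all 3 calls were lost without replicate 2.

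Several of the genes that rose code for abundant yeast messages. Of 17 glycolytic genes 6 were higher and none lower, with a median of 0.72. TDH3, the main glyceraldehyde-3-phosphate dehydrogenase gene, read 2.61, 2.58 and 2.37 (mean 2.52 ± 0.13, adjusted p = 0.00249 in limma), and PGK1 read 1.97, 1.85 and 2.08 (mean 1.97 ± 0.12). TEF1 and TEF2, the identical-protein copies of elongation factor 1A, averaged 1.94 and 2.10, with little spread between arrays. The cell wall genes CCW12, CWP2 and SED1 averaged 2.71, 2.45 and 2.36, alcohol dehydrogenase ADH1 2.05 and the proton pump PMA1 1.68. ENO2, CDC19, GPM1 and TPI1 were the other glycolytic genes that passed, at 1.90, 1.52, 1.22 and 1.06.

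These genes were positive on most other arrays of the series, and most of them were lower or negative where the dyes were swapped, with exceptions such as SED1 at 3.05 on the swapped wild type KCl array. TDH3 was at least 2-fold higher in the numerator on 33 of the 41 other arrays with a value, with a median of 2.06. CCW12 was so on 38 of 42 (median 2.19), TEF2 on 29 of 41 (median 1.45) and PGK1 on 25 of 42 (median 1.38). A wild type array of H2O2 over log phase shared a slide with replicate 3, and there TDH3 read 2.45, TEF2 1.87 and PGK1 2.60. Of the 3 arrays with swapped dyes, the 2 of the Vip1D487A mutant, in log phase and in KCl, read -2.18 and -2.20 for TDH3, -1.51 and -1.36 for TEF2, -1.56 and -1.99 for PGK1, and -1.53 and -2.51 for CCW12. The swapped wild type KCl array read -0.12 for TDH3, against 2.49 and 3.38 on the unswapped ones. With a gene-specific dye term 5 of the 9 genes in the plot of abundant messages lost their call and 4 kept it. TDH3 became 0.99 (adjusted p = 0.304 in limma), TEF2 0.72 (0.308), ADH1 0.69 (0.532), TEF1 1.22 (0.0919) and CWP2 1.77 (0.103). SED1 was at 2.38 (adjusted p = 0.00857 in limma), PMA1 at 1.95 (0.0399), CCW12 at 1.89 (0.043) and PGK1 at 1.39 (0.0455), PGK1 being the 1 of the 6 glycolytic calls kept. On the wild type rapamycin array TDH3 read -2.78, TEF2 -3.24, PGK1 -2.51 and CCW12 -2.21, although its labels put the rapamycin RNA in Cy5. Its column and those of the swapped Vip1D487A arrays are the 3 given with more decimals. The cause of these values was not tested.

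**Figure D4:**
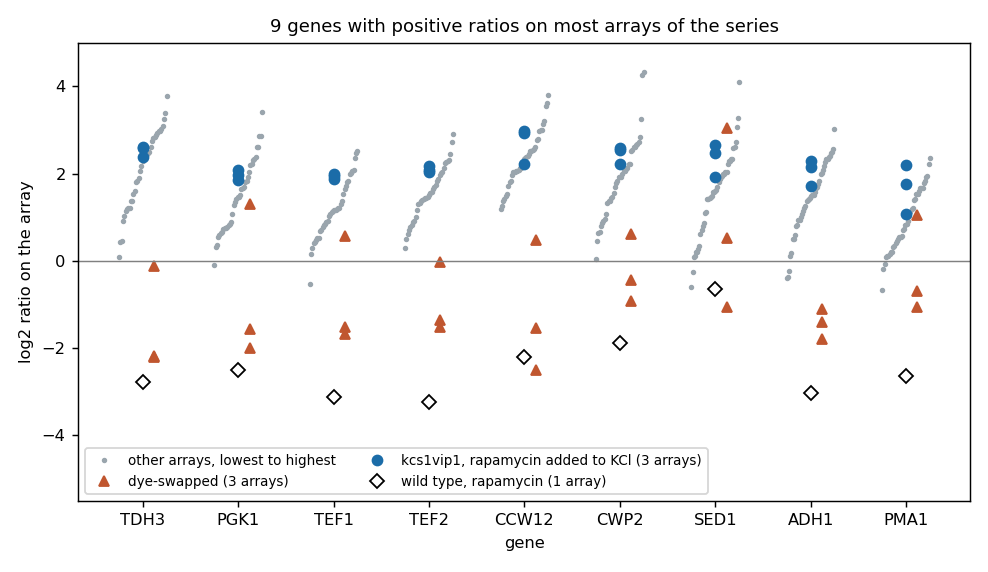
Log2 ratios of 9 genes with abundant messages on all arrays with a value, as small points from lowest to highest, with the 3 arrays of rapamycin added to KCl in kcs1vip1 as large circles, the 3 dye-swapped arrays as triangles and the wild type rapamycin array as an open diamond. The genes were chosen after their values were seen. Most arrays of the series give positive values for these genes, and the circles lie within their range, whereas the diamond is below 0 for all 9 and so are most triangles.

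Few of the common stress genes changed when rapamycin was added to KCl. Of 59 genes induced by many stresses 4 (6.78%) were higher (TPS2, UGP1, TPS1 and APE1) and none lower, with a median of 0.127. Over all genes tested, 2.48% were higher. TPS2, the trehalose-6-phosphate phosphatase, read 1.34, 0.97 and 1.74 (mean 1.35 ± 0.39), and TPS1, the synthase of that pathway, averaged 0.77 ± 0.23. CTT1, the cytosolic catalase, read 0.70, 0.34 and 0.99 and did not pass (adjusted p = 0.204 in limma), nor did HSP12, at 1.35, -0.07 and 0.87. Without replicate 1, 2 or 3, 2 of the 59 passed each time. In the wild type the median of the list was 5.27 in KCl and 1.67 on the rapamycin array, both over log phase. In kcs1vip1, KCl over log phase gave a median of 4.30 (1 array), and both channels of the rapamycin arrays held cells in KCl.

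Of 24 osmotic stress genes 7 were higher and none lower, with a median of 0.403. ENA1, the sodium pump gene induced by salt and by TORC1 inhibition, read 1.97, 2.16 and 3.04 (mean 2.39 ± 0.57, adjusted p = 8.59e-07 in limma). CHA1, the catabolic serine and threonine deaminase, an amino acid breakdown gene that was counted on this list, averaged 1.95 ± 0.34. HOR7 read 3.04, 3.12 and 2.23 (mean 2.80 ± 0.49), but its adjusted p was 0.0349, and its call, like those of the glycerol symporter STL1 (1.40) and of CWP1 (1.32), was lost without any 1 of the 3 arrays. GPD1, the first enzyme of glycerol synthesis, averaged 0.97. Without replicates 1, 2 and 3 in turn, 3, 3 and 2 of the 24 passed.

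Within the TORC1 network itself, 4 of 39 genes were higher (10.3%) and 2 lower (5.13%), with a median of 0.067. The shares over all genes tested were 2.48% and 2.58%. NPR1, a kinase that TORC1 holds inactive and that stabilizes permeases such as Gap1, read 0.93, 1.56 and 0.96 (mean 1.15 ± 0.36, adjusted p = 5.48e-05 in limma). NPR2 and IML1, subunits of the SEACIT complex that inhibits TORC1, both averaged 0.59, and GAT1 is the other higher gene. IFH1, the coactivator of ribosomal protein genes, read -0.50, -1.33 and -0.64 (mean -0.82 ± 0.44), and PIB2, a vacuolar activator of TORC1, read -0.62, -0.73 and -0.75 (mean -0.70 ± 0.07). Without replicate 2, NPR1 was the 1 of the 39 that passed.

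In the inositol pyrophosphate pathway, INM1, an inositol monophosphatase, was lower at -1.02 ± 0.50, and no other of the 8 genes passed. The diphosphoinositol phosphatase gene DDP1 averaged -0.79 (adjusted p = 0.104) and the kinase genes ARG82 and IPK1 -0.26 and -0.50. Of 20 genes in the Rpd3 and Set3 deacetylase complexes, which the series also studied through deletions, only SAP30 passed (5.0%, against 5.06% of all genes tested). It read -0.76, -2.22 and -0.57 (mean -1.18 ± 0.90). Both calls were lost without replicate 2. Of 19 G2/M genes only PMP1, a small regulator of the proton pump, passed (5.26%, also near the share of all genes), at 2.03. No gene passed in limma among those of stationary phase (18), hexose transport (12), oxidative phosphorylation (38), phosphate starvation (22), iron (30), sulfur amino acids (28), heat shock (26), the proteasome (33), oxidative stress (20), G1/S (24) or histones (10). Their medians ran from -0.103 for oxidative phosphorylation to 0.265 for the iron regulon. At an unadjusted p below 0.05 stood 8 iron genes, 4 each of the sulfur and proteasome genes, 3 of oxidative phosphorylation, 2 each of stationary phase, phosphate, heat shock and oxidative stress, 1 of hexose transport and 0 of G1/S and histones.

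The rapamycin change in kcs1vip1 was then set against the change that KCl makes in the wild type, as the difference of the 2 log2 ratios in the same model. Both channels of the rapamycin arrays held RNA of cells in KCl, so the mutant's own salt response cancels in their ratio, while the wild type ratio holds the wild type's response in full. A difference against the salt response therefore follows from the design for genes that salt moves. The mutant's own response, on 1 array of kcs1vip1 in KCl over log phase, had medians of 4.30 for the common stress genes, -1.685 for the processome and -1.88 for large subunit assembly. Of 5803 genes 2691 (46.4%) differed, 1363 (23.5%) with the higher value for rapamycin and 1328 (22.9%) with the lower. For the growth genes the difference ran upward. It was positive in 54 of 56 processome genes that passed, none the other way, with a median difference of 3.67, and in 64 of 67 large subunit genes, with a median of 3.59. NSR1, nucleolin, averaged -6.87 ± 0.10 in wild type KCl and -0.46 ± 0.31 with rapamycin, a difference of 6.41 ± 0.54 (SE) with an adjusted p of 1.16e-11 in limma. NOC2, which acts in large subunit export, averaged -6.18 and -0.03.

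For stress genes the difference ran downward in 58 of 59 genes, none upward, with a median of -5.06. STL1 averaged 12.62 ± 0.66 in wild type KCl against 1.40 ± 0.56, ALD3 11.36 against 0.58, CTT1 11.36 against 0.68, and HXT5 11.40 against 0.66. PHM7, HSP12, SPI1 and MSC1 had differences of -10.02, -9.37, -9.28 and -8.74. Of the targets of nitrogen catabolite repression 19 of 34 differed upward and 5 downward, with a median of 1.52. MEP2 averaged -3.71 ± 0.58 in wild type KCl and GAP1 -3.01 ± 0.78, and their differences were 10.56 and 10.19. GLN1 averaged -3.09 against 2.74, and the phosphate transporter gene PHO84 -6.12 against -0.23. SRP40, a nucleolar chaperone, averaged -4.79 in wild type KCl and 1.40 ± 0.66 with rapamycin, where it passed as higher.

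How far kcs1vip1 cells in KCl plus rapamycin still stood from wild type cells in KCl was estimated by adding the rapamycin ratio to the ratio of kcs1vip1 in KCl over wild type in KCl. The 2 RNAs were never on 1 array, and both ratios have their numerator in Cy5, so a dye effect would add up. Of 5777 genes 1953 (33.8%) passed, 960 (16.6%) higher and 993 (17.2%) lower than wild type in KCl. In the processome 40 of 56 genes were higher and none lower, with a median of 1.92, and in large subunit assembly 44 of 66 were higher and 1 lower, with a median of 1.55. Without rapamycin the medians of kcs1vip1 in KCl over wild type in KCl were 2.34 and 2.03. MRD1, which acts in processing of 18S rRNA, averaged 4.44 ± 0.77 in kcs1vip1 over wild type in KCl and 0.34 ± 0.15 with rapamycin, so that the sum was 4.79 ± 0.50 (SE, adjusted p = 1.13e-08 in limma). RPA12 went the other way, from 0.95 to a sum of -0.75 that did not pass (adjusted p = 0.0951). Within the 1 slide that held both kinds of array, the sum's median was 1.22 for the processome and 0.875 for large subunit assembly, against -0.07 for all genes.

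Of 59 stress genes, 18 were lower and 3 higher than in wild type KCl, with a median of -0.68, and without rapamycin the median was -0.79. CTT1 had a sum of -0.09 and HSP12 of 0.52, neither past the threshold, while ALD3 was at -1.64 and MSC1 at -1.72. The targets of nitrogen catabolite repression were higher in 17 of 34 cases and lower in 4, with a median of 0.792 against -0.587 without rapamycin. MEP2 was at 6.39, PUT1 at 6.30, AGP1 at 5.87 and GAP1 at 5.40. GDH1, lower in kcs1vip1 than in the wild type in KCl at -3.51 ± 0.21, came to a sum of -0.23 ± 0.54 (SE) with rapamycin (adjusted p = 0.775), which does not show that the 2 were equal. Ribosomal protein genes were higher in 33 of 136 cases and lower in 4, with a median of 0.522, but with a dye term they were higher in 0 and lower in 1, with a median of -0.422.

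Among the largest sums apart from nitrogen genes, some were there without rapamycin and others came from both ratios. The plasma membrane stress protein gene HSP30 averaged 5.95 ± 1.16 in kcs1vip1 over wild type in KCl and 0.77 ± 0.22 with rapamycin. CCW12 averaged 2.85 without rapamycin and 2.71 for the rapamycin ratio, a sum of 5.56, and CWP2 2.15 and 2.45, a sum of 4.60. Both passed with rapamycin, but with a dye term CWP2 did not (1.77, adjusted p = 0.103 in limma). Both genes were also positive on most other arrays of the series, with medians of 2.19 for CCW12 and 1.84 for CWP2. A dye effect on them would therefore enter these sums through both ratios. With a dye term, 15 of the genes with the highest and lowest sums kept their call in the sum and 1 lost it. Which gene lost it, and the sums of CCW12 and CWP2 with that term, are not given here. At the low end were genes of leucine synthesis and of mating. LEU1 averaged -5.37 ± 0.11 without rapamycin and -0.22 ± 0.14 for the rapamycin ratio. The oxaloacetate carrier gene OAC1 averaged -6.13 and -0.37, and LEU2 -4.34 and 0.24. The pheromone protease gene BAR1 averaged -4.93 and -0.26, the pheromone response regulator SST2 -3.58 and -0.04, the decarboxylase gene ARO10 -4.69 and 0.39, and the vitamin B6 gene SNZ3 -3.13 and -0.40. None of these 7 passed with rapamycin. ILV5, the eighth of the lowest sums, did, with -1.73 without rapamycin, -1.72 for the rapamycin ratio and a sum of -3.45. LEU2 can also serve as a marker gene in strain construction, and the markers of ACY236 are not given in the sources used here.

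**Figure D5:**
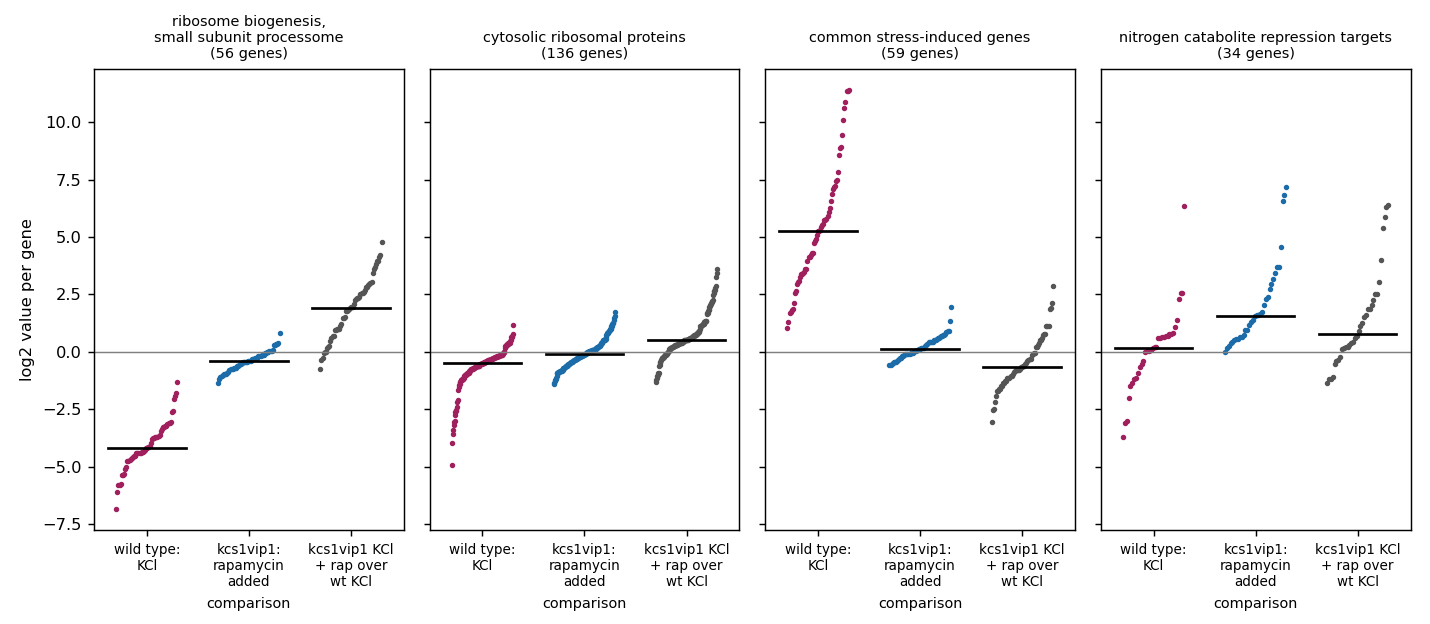
Log2 values of every gene in 4 lists, from lowest to highest, for wild type KCl over log phase (left in each panel, mean of 3 arrays), for rapamycin added to KCl in kcs1vip1 (middle, mean of 3 arrays) and for the sum that sets kcs1vip1 in KCl plus rapamycin against wild type in KCl (right). Black bars are medians. Processome genes have medians of -4.20, -0.41 and 1.92, and common stress genes of 5.27, 0.127 and -0.68.

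Of the 150 genes that rose with rapamycin in kcs1vip1, 69 were among the 1737 at least 2-fold higher on the wild type rapamycin array and 33 among the 1040 at least 2-fold lower there, against 28.2% and 16.9% of all genes on that array. Of the 156 that fell, 56 were at least 2-fold lower there and 27 at least 2-fold higher. The group of 33 holds TDH3, TEF1 and CCW12.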

How the data were processed

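The values were log2 ratios deposited by the authors, 1 column per 2-colour array, which were taken to be log2 since they have signs and lie around 0. The log base, normalization and centring are not given in the sources used here. Of 6317 entries 61 controls were left out, and probes were named through the platform annotation and RefSeq R64, which gave 4068 genes with a symbol among 6249 genes or probes. In 3 columns given with more decimals, the wild type rapamycin array among them, 407 exact zeros were set to missing. A group-means model over the 54 arrays with a group was fitted in limma 3.58.1 (R 4.3.3), with p-values adjusted by Benjamini-Hochberg within each comparison over genes measured on 2 or more arrays of each group, and a threshold of 0.05. Intervals and errors of differences are standard errors from that fit, and SDs are over arrays. Named genes were the 15 highest and 15 lowest, up to 6 members per list, the TORC1 and inositol pyrophosphate genes, and the 8 highest and lowest of both other comparisons. Other genes were named outside these rules, among them further members of the nitrogen list, AMD2 and ASN1. The comparison and the gene lists were chosen with earlier results of these data known. Alternatives changed centring, scaling, missing genes, slide, dye, moderation, arrays and replicates. Promoter sequences were not used here. The array of kcs1vip1 in KCl whose labels disagree entered no comparison.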

Additional observations from a re-analysis of the deposited data

Results flagged for a closer look

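The 15 highest and 15 lowest genes with rapamycin in kcs1vip1 were compared by sign with the wild type rapamycin array. On that array, 9 of them had the opposite sign to all 3 arrays of rapamycin added to KCl. Of the genes that rose in kcs1vip1, MEP3 read -0.57 and OPT1 -1.81. Of the genes that fell, ADE17 read 0.85, MTD1 0.84, GCV1 2.34, URM1 0.76, DAD2 1.19, ADE1 0.75 and THP2 0.89. The difference was not tested, and the share of all genes with the opposite sign is not given here. The wild type array had no KCl, may have been processed differently, and had a median of 0.378 over all genes, so its positive values under 1 lie near that median.

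A single array entered no comparison, since its labels disagree. By its title it holds kcs1vip1 in KCl over untreated kcs1vip1, but KCl is given as the source of both channels. STL1 on this array read 14.37, and of 6094 values 726 were at least 2-fold higher and 702 at least 2-fold lower.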

How the results depend on the processing

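The 306 calls with rapamycin became 1710 when arrays were scaled to the same spread, which enlarges the ratios of these narrow arrays, 90 with slide as a fixed block, 124 with only the arrays of the comparison and 153 with at least 2-fold change, and 78 to 222 when 1 array was left out. Other settings gave 232 to 309. Of the 241 genes that passed with a dye term, only 139 were among the 306. Of the targets of nitrogen catabolite repression, 23 rose, and 15 did when only genes on every assigned array were tested (fewer genes), 17 to 22 without 1 array. Of the processome, 8 fell, and 19 did with scaled arrays, 1 with the fixed block, 4 with a dye term, 2 with only these arrays and 2 to 8 without 1 array. Of large subunit assembly, 12 fell, and 26 did with scaled arrays, 4 with the fixed block, 4 with only these arrays and 0 to 10 without 1 array. The difference from wild type KCl (2691 genes) gave 1540 with scaled arrays, 1715 with only genes of at least 600 bases (fewer genes tested, chosen after seeing the data) and 2388 to 2505 without 1 array. The sum (1953 genes) gave 1301 with slide as a fixed block, 623 with a dye term and 1520 to 1696 without 1 array. The cause was not tested for the fixed block and the dye term. Among named genes, CWP1 reversed to -0.092 with slide as a fixed block, 266 other gene settings of the rapamycin comparison lost their call and 1062 kept it, and GAP1, MEP2, AGP1 and DAL80 kept theirs throughout. The losses were uneven over settings. Of 99 named genes, 63 lost their call with the fixed block and 52 without replicate 2. With the dye term 45 lost it, and with only these arrays 43. For the 8 highest and 8 lowest genes of the difference every gene setting kept its call. For those of the sum 263 did and 2 did not. These genes are the extremes of each comparison, so the counts do not speak for the other genes. With the wild type rapamycin array centred, 2525 genes passed 2-fold, against 2777. No paired analysis was possible because the labels give no replicate numbers and the groups compared share at most 1 slide, so slide entered as a block instead. Signal over background was not used here, so dim probes could not be set apart.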
